A study of Mus musculus with 2 samples.

Results

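Coch-high otic fibrocyte mesenchyme is here a set of 960 cells, of 15813 that passed the filters, chosen by measured values in single-cell RNA sequencing of embryonic mouse cochleae. A cell is a barcode with 1000 or more unique molecular identifiers (UMIs, each 1 captured transcript), 500 or more genes, and a mitochondrial share of UMIs no higher than 10%. It was kept where Coch reached 3 UMIs per 10000, 2 or more of Slc5a7, Crym and Apod were detected, Otor had at least 1 UMI, Epcam had 0, and Mki67, Top2a and Cenpf together stayed under 5 UMIs. The levels of these 9 genes are therefore a description. The study made 1 library from wild-type cochleae and 1 from Emx2Cre;Ptch1f/f cochleae, each a pool of 8 cochleae at E16.5 (E stands for embryonic day) on a mixed 129/SvEv and C57BL/6N background. Ptch1 encodes the receptor that keeps Hedgehog signalling off in the absence of ligand, and Cre in the mutant follows the expression of Emx2. The series concerns this pathway in marginal cells and the stria vascularis. Because each genotype is a single pooled library, differences between genotypes have no replicate behind them and carry no test, and the intervals given, all at 95%, cover counting error alone.

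Fibrocytes are mesenchymal cells of the cochlear lateral wall and spiral limbus. In the mature ear, those of the lateral wall lie behind the stria vascularis, are coupled by gap junctions and pass potassium back towards it, while their matrix of collagens and proteoglycans supports the tissue. Coch, Crym and the transcription factor gene Pou3f4 are known from hereditary hearing loss.

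The wild-type library gave 531 of these cells and the mutant library 429, and 0 barcode sequences among them occurred in both. Wild-type cells held a median of 6306 UMIs (3403 to 29365, with 3666895 in all), and mutant cells 8728 (1098 to 26238, with 3760550 in all). The median mitochondrial share was 2.87% in the former and 5.66% in the latter. The whole libraries held 61130806 UMIs over 6500 barcodes and 100135532 UMIs over 12326 barcodes, with lowest totals of 3352 and 500 UMIs per barcode, and 25 barcode sequences occurred in both.

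The genes of the rule lie, in the GRCm38 (mm10) assembly, on chromosome 12 (Coch, 51593341 to 51605771), chromosome 2 (Otor, 143078473 to 143081713), chromosome 7 (Crym, 120186380 to 120202111), chromosome 16 (Apod, 31296192 to 31314808) and chromosome 17 (Slc5a7, 54273590 to 54299034). The 150 bases upstream of the RefSeq start (GRCm38.p6) are shown for 4 of them, since joint detection of these genes defines the cells and their promoters can be compared. Capitals mark a TATA box (TATAAA).
Coch, plus strand, chr12:51593191-51593340: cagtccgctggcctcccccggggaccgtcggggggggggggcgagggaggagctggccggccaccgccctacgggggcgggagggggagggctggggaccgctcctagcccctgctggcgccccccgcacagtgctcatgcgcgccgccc
Otor, plus strand, chr2:143078243-143078392: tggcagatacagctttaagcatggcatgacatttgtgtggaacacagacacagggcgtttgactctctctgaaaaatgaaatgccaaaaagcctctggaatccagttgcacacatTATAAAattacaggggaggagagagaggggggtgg
Slc5a7, minus strand, chr17:54299035-54299184: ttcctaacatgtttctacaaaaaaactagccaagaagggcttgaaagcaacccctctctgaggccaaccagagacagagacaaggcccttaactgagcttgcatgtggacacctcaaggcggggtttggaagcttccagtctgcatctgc
Apod, minus strand, chr16:31314809-31314958: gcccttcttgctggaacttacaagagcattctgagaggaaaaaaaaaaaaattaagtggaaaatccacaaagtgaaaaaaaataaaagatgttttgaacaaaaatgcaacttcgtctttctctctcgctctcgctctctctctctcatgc
The window of Coch had 81.3% G and C, that of Slc5a7 50%, that of Otor 46% and that of Apod 36.7%. Both strands of the 250 upstream bases were searched for TATAAA, the octamer ATTTGCAT of POU factors, the T-box core GGTGTGA and the GLI sequence GACCACCCA. TATAAA was found in Otor, within the window shown, and in Slc5a7, further upstream than the window shown, and the other motifs in none of these 4 genes. Over 32536 RefSeq promoters, TATAAA occurred in 12.3%, the octamer in 1.62%, the T-box core in 3.33% and the GLI sequence in 0.218%. A match is a run of letters in a window and not a binding site.

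Otor was the most abundant of the genes that chose the cells. Otor, whose product otoraplin is secreted in the inner ear, had a median of 56.8 UMIs per 10000 (1.48 to 259) in wild-type cells and 47.0 (0.762 to 198) in mutant cells. Crym, which encodes the thyroid hormone-binding protein mu-crystallin, had medians of 35.5 (0.787 to 111) and 44.1 (1.28 to 119.8). Coch, which encodes the matrix protein cochlin, had medians of 9.46 (3.02 to 51.7) and 7.58 (3.03 to 36.4). For these genes, and for the secreted lipid carrier Apod, the cells of the 2 libraries overlapped over most of the range. Apod had medians of 6.50 (0 to 34.2) and 7.33 (0 to 36.6).

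Slc5a7, the high-affinity choline transporter best known from cholinergic nerve endings, was detected least often. It had a UMI in 246 of 531 wild-type cells (46.3%, 42.0 to 50.7) and in 299 of 429 mutant cells (69.7%, 65.1 to 74.0). Thinned to 3000 UMIs per cell, which left out 22 mutant cells, the shares were 29.2% (25.4 to 33.3) and 39.6% (34.8 to 44.5). Summed over cells, Slc5a7 made up 116 of 1000000 UMIs (written CPM from here on) in wild-type and 205 CPM in mutant cells. Every cell held Crym, and 285 wild-type and 130 mutant cells entered the set through Crym and Apod with 0 UMIs of Slc5a7.

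**Figure D1:**
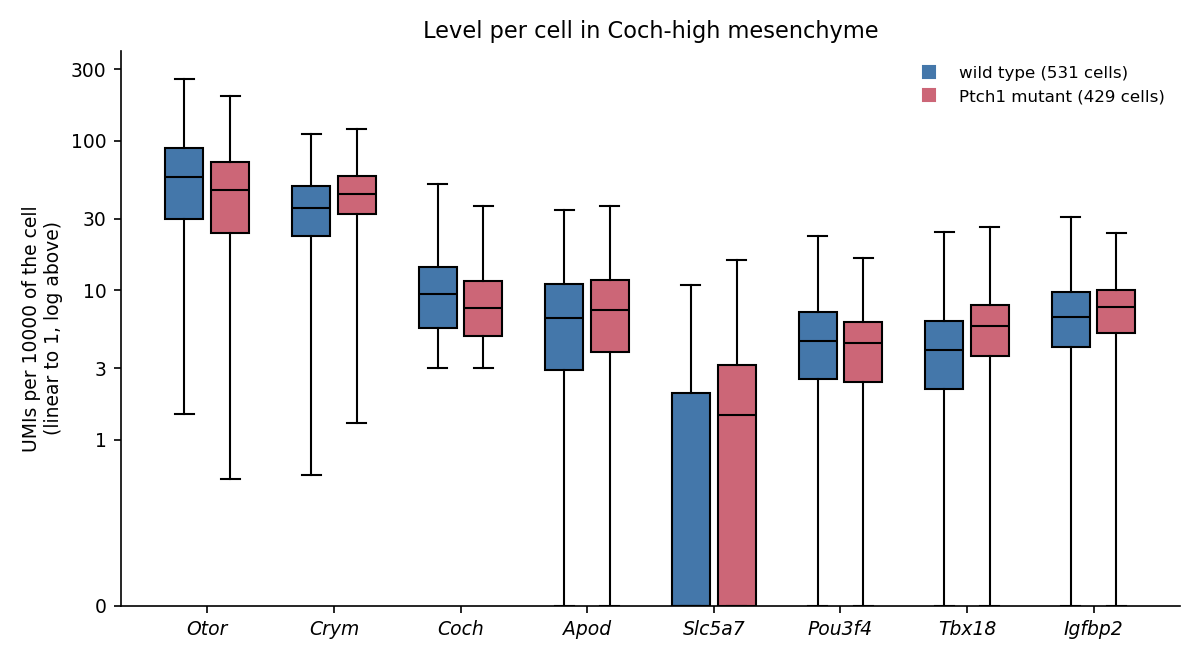
Level per cell of the rule's genes (Otor, Crym, Coch, Apod, Slc5a7) and of Pou3f4, Tbx18 and Igfbp2, in UMIs per 10000 of the cell, for 531 wild-type and 429 mutant cells. Boxes span the quartiles with the median as a line and whiskers reach the lowest and highest cell. The libraries overlap for every gene shown.

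Markers that the rule did not use were those of otic mesenchyme. Pou3f4, a POU factor of otic mesenchyme, stood at 522 and 466 CPM (wild type first, mutant second, as in all such pairs), with a UMI in 91.0% and 93.7% of them. Tbx18, a T-box factor of the same tissue, stood at 454 and 605 CPM, and Prrx1, a mesenchymal homeobox factor, at 207 and 168 CPM. The collagen genes Col1a2 (1842 and 1148 CPM) and Col3a1 (1248 and 854 CPM) were abundant, while Tbx15 had 3 and 1 UMIs. The fibrocyte part of the name rests on the rule's own genes. Of genes known from mature fibrocytes or the mature lateral wall, Slc26a4 had 0 UMIs in both libraries, Kcnj10 and Kcnj16 had 0 in the wild type and 1 each in the mutant, and Otos had 1 and 0.

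Transcripts of other cell types were found in part of the cells. At least 1 UMI of the erythroid markers was in 25.4% of wild-type and 39.2% of mutant cells, of the epithelial markers in 14.3% and 26.1%, and of the pericyte markers in 13.7% and 16.8%. More than 5 UMIs per 10000 from 35 marker genes of other lineages were found in 45 wild-type cells (8.47%, 6.25 to 11.2) and 21 mutant cells (4.90%, 3.06 to 7.39), called mixed cells from here on. The 4 neuronal markers summed to 73.6 CPM in wild-type and 6.65 CPM in mutant cells, with 45.8 per 10000 in the highest wild-type cell and Snap25 at 0 in the mutant. The 4 erythroid markers summed to 254 and 1567 CPM, and 1 mutant cell held 2113 per 10000. Of the 4 cartilage markers, Col9a1 gave nearly all of the sum (2785 and 1502 CPM), while Acan had 4 and 3 UMIs and Matn1 3 and 1. Epithelial cells (Epcam at 2 or more UMIs, median depths 8715 and 9388 UMIs), thinned to 3000 UMIs, held Crym in 63.0% and 61.5% of cells and Otor in 65.5% and 22.4%. Coch was in 13.5% and 2.87% of epithelial cells at that depth, against 94.0% and 91.2% of the Coch-high cells, and Slc5a7 in 1.67% and 1.55%.

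The Coch limit cut through cells with similar Otor. At 2 to 3 UMIs of Coch per 10000, just outside, 97 wild-type and 75 mutant cells met all other criteria, and at 3 to 4, just inside, there were 51 and 61. In the wild type Otor stood at 6208 CPM outside and 5793 CPM inside, and in the mutant at 4329 and 4271 CPM. Slc5a7 stood at 71.3 CPM outside and 54.9 CPM inside in the wild type, and at 146 and 183 CPM in the mutant. Crym stood at 1980 CPM outside and 2100 CPM inside in the wild type, and at 3027 and 4346 CPM in the mutant.

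Coch-high cells took a larger share of the wild-type library. They were 531 of 6440 filtered cells (8.25%, 7.58 to 8.94) there and 429 of 9373 (4.58%, 4.16 to 5.02) in the mutant, a ratio of 1.80. Set against cells that met every other criterion but had 0 UMIs of Coch, they were 35.1% of 1512 and 20.7% of 2077 cells. The wild-type share was the larger under every setting tried, but the ratio was 1.17 when Slc5a7, Crym and Apod were all required, 1.36 when cells were thinned to 3000 UMIs before the rule was applied, and 3.72 with a mitochondrial limit of 5%. Depth and mitochondrial share differed between the libraries, as given above, and their part in the result was not tested beyond these settings.

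Other mesenchyme is used for comparison: 813 wild-type and 1130 mutant cells outside the set with at least 20 UMIs per 10000 of Col1a1, Col1a2 and Col3a1 together, 0 UMIs of Epcam, under 5 UMIs of the dividing-cell genes and 0 UMIs of defining genes of other lineages, among them Cdh5, Ptprc and Tubb3. Its own rule thus set its collagen level. Both populations were chosen by expression, so the differences describe the choice and carry no test. Of 8960 genes, 141 (1.57%) were at least 2-fold higher in the Coch-high cells of both libraries and 345 (3.85%) at least 2-fold lower.

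By the rule for named genes, 15 genes highest above other mesenchyme are given. Myzap, a junction-associated protein, stood at 115 and 146 CPM in Coch-high cells, against 16.8 and 12.1 CPM in other mesenchyme. Fabp7, a fatty acid-binding protein, stood at 210.0 and 159 CPM, against 35.1 and 18.4 CPM. Fabp7 also stood at 129 and 65.8 CPM in mesenchyme without Coch and at 627 and 343 CPM over all other filtered cells, and 12.9% of its UMIs in wild-type Coch-high cells were in 1 cell. The rule of other mesenchyme drops cells with genes of other lineages. Col9a3, a chain of the cartilage-type collagen IX, stood at 2706 and 1579 CPM, against 525 and 200.2 CPM. Myzap, Fabp7 and Col9a3 were higher in both libraries by at least 2 on the log2 scale. Slit2, a secreted guidance ligand, stood at 343 and 266 CPM, against 89.97 and 53.5 CPM. Socs2, an inhibitor of cytokine signalling, stood at 132 and 142 CPM, against 33.7 and 28.7 CPM, and Apcdd1, a WNT inhibitor at the cell surface, at 93.8 and 97.3 CPM, against 23.8 and 17.2 CPM. Ckb, brain-type creatine kinase, stood at 213 and 400.2 CPM, against 65.8 and 79.4 CPM, but 209 and 260.0 CPM in mesenchyme without Coch. The other 8 of the 15 were Spock3, Ets1, Cacna1e, Gfra1, Rflnb, Tspan5 and 2 entries named Pakap, with log2 differences of 1.65 (Tspan5) to 2.12 (Pakap_ENSMUSG00000090053) in the wild type.

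The same rule gives the 10 genes lowest against other mesenchyme. Gdf10, of the TGF-beta family, stood at 10.4 and 5.05 CPM, against 191 and 283 CPM. Fst, which encodes the activin antagonist follistatin, stood at 9.54 and 1.60 CPM, against 149.7 and 116 CPM. Mgp, an inhibitor of mineralization, stood at 74.4 and 42.0 CPM, against 883 and 653 CPM. The growth factor gene Igf1 and the IGF-binding protein gene Igfbp5 were both on this side. Igf1 stood at 16.4 and 3.46 CPM, against 181 and 173 CPM, and Igfbp5 at 125 and 73.9 CPM, against 1428 and 2676 CPM. Prss35, Penk, Thsd4, Foxd1 and Angpt1 complete the 10.

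**Figure D2:**
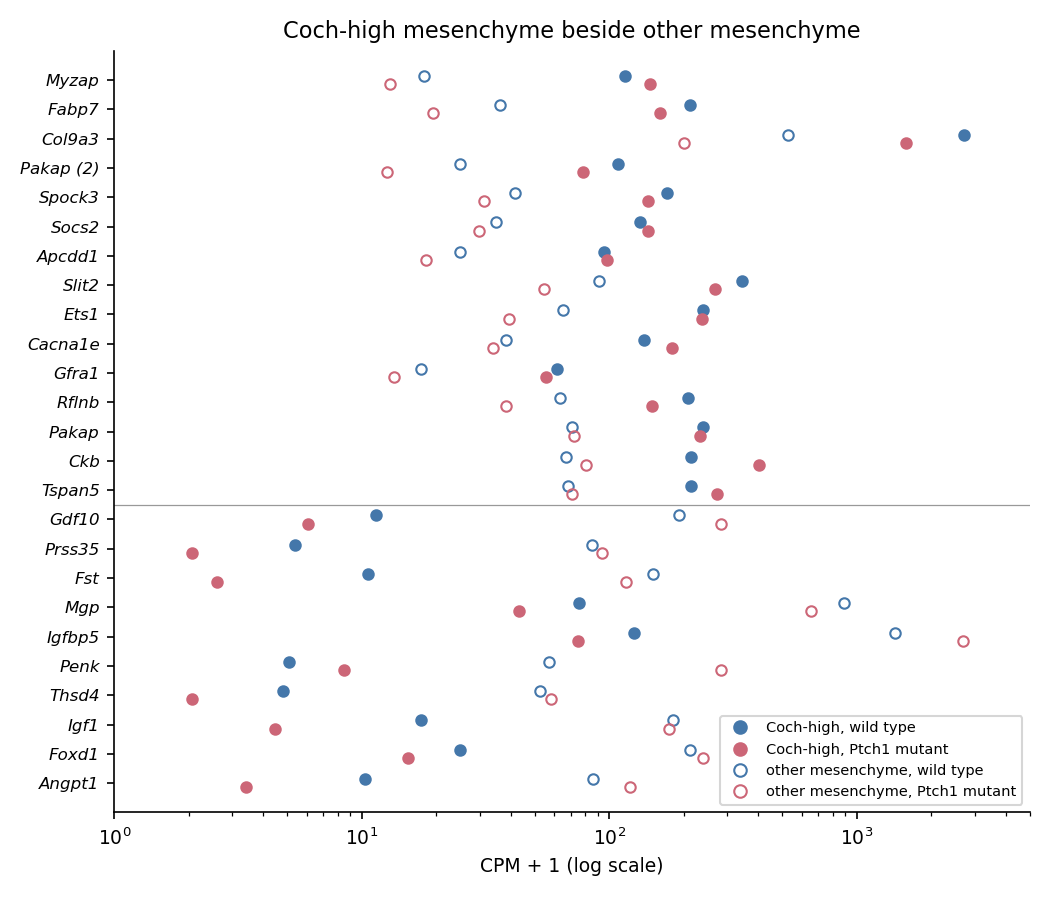
Level (CPM + 1, log axis) of the 15 genes highest above and the 10 lowest below other mesenchyme, in Coch-high cells (filled) and other mesenchyme (open) of the wild-type (blue) and mutant (red) library. Filled and open points of a library lie apart for every gene, as for Myzap at 115 against 16.8 CPM in the wild type.

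Cells that met all criteria but had 0 UMIs of Coch, 981 wild-type and 1648 mutant, are a closer comparison that was added after the data were seen. This set, called mesenchyme without Coch, had no minimum of collagen and, apart from Epcam, no limit on genes of other lineages. It may therefore hold other cell types, and how many was not tested. Of 8926 genes, 164 (1.84%) were at least 2-fold higher in the Coch-high cells of both libraries and 297 (3.33%) at least 2-fold lower. All 3 collagen IX genes were among the 15 highest. Col9a3 stood at 187 and 74.6 CPM in the cells without Coch, 3.85 and 4.39 below the Coch-high cells on the log2 scale. For Col9a1 the differences were 2.98 and 2.78, and for Col9a2 2.41 and 2.47. Matn4, a matrilin that links matrix filaments, stood at 365 and 406 CPM in Coch-high cells and 41.3 and 36.2 CPM in cells without Coch. Fbln2, a matrix protein of elastic fibres and basement membranes, stood at 499.6 and 429.7 CPM and 109 and 82.9 CPM. Slit2, Ets1, Gfra1, Rflnb, Myzap and Pakap_ENSMUSG00000090053 were again among the 15, which Limch1, Bcl11b, Rasl11b and Adamts20 complete. In the other direction, Mme, which encodes the peptidase neprilysin, stood at 32.2 and 22.1 CPM in Coch-high cells and 522 and 627 CPM in cells without Coch. Robo2, a receptor for Slit ligands, stood at 10.1 and 7.18 CPM and 136 and 186 CPM, and Osr1, a zinc finger factor, at 5.18 and 2.93 CPM and 69.7 and 80.4 CPM. Slit2 and Robo2 thus lay on opposite sides in both libraries.

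Between the genotypes, few genes of the Coch-high cells differed by 2-fold. Ratios are log2 of mutant over wild-type CPM, with 1 CPM added to each, for 9036 genes with at least 50 UMIs over both libraries and 10 CPM in 1 of them, leaving out the 9 genes of the rule. By this measure 82 genes (0.907%) were at least 2-fold higher in mutant cells and 127 (1.41%) at least 2-fold lower, and the median ratio was 0.011. Of the 82, 23 were at least 2-fold higher in mesenchyme without Coch too, and 23 in epithelium. Of the 127, 41 were at least 2-fold lower in mesenchyme without Coch and 58 in epithelium. Over all 9036 genes, 32 were at least 2-fold higher and 65 lower in mesenchyme without Coch, and 88 and 197 in epithelium. The minimum of UMIs sets these counts: at 200 UMIs they were 30 and 39.

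For Ptch1, Gli1 and Hhip, no difference was detectable at this depth. Ptch1, the targeted gene, had 70 UMIs (19.1 CPM) in wild-type and 96 UMIs (25.5 CPM) in mutant Coch-high cells, and the interval of its log2 ratio ran from -0.04 to 0.88. The ratio itself was 0.40, and -0.19 in cells thinned to 3000 UMIs. Gli1, a factor induced by the pathway, had 7 and 4 UMIs, and Hhip, an induced antagonist, 4 and 1. In epithelium the ratios of Ptch1 and Gli1 were 2.54 and 2.64. Emx2, whose expression drives Cre, had 2 UMIs in the Coch-high cells of each library. The 3′ tags need not lie in the floxed part of Ptch1, so its counts check neither the deletion nor the labels. Of 9 genes of reception and transduction, 0 were past 2-fold either way and the median was -0.13, with the transducer Smo at 129 and 154 CPM and the factor Gli3 at 52.1 and 60.4 CPM. Against other mesenchyme, Gli1 (1.91 and 1.06 CPM against 12.6 and 13.6 CPM) and Hhip (1.09 and 0.266 CPM against 25.7 and 12.4 CPM) were low in the Coch-high cells of both libraries.

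Collagen genes were mostly lower in mutant cells. Of 26 tested, 8 were at least 2-fold lower and 0 higher, 23 lay below 0, and the median ratio was -0.60. Col1a1, the main chain of collagen I, stood at 147 CPM (538 UMIs) in wild-type against 24.7 CPM (93 UMIs) in mutant cells, a ratio of -2.52. Its ratio was -0.55 in mesenchyme without Coch, -0.17 in other mesenchyme and -2.43 in epithelium. In epithelium Col1a1 stood at 22.0 and 3.28 CPM. At 3000 UMIs, the mesenchymal genes Pou3f4 (23.0% and 8.00%) and Tbx18 (19.8% and 8.31%) were also detected in fewer mutant epithelial cells. Whether such transcripts come from the epithelial cells themselves was not tested. Thinned to 3000 UMIs, Col1a1 was detected in 18.1% (14.9 to 21.6) of wild-type and 5.65% (3.62 to 8.36) of mutant Coch-high cells. The other chain of the same fibre, Col1a2, had a ratio of -0.68, and Col3a1 one of -0.55. Col11a1 and Col11a2, chains of the fibrillar collagen XI, stood at 596 and 262 CPM for the first and 106 and 36.2 CPM for the second. The collagen IX genes, which marked the cells off from those without Coch, had ratios of -0.89 (Col9a1), -0.60 (Col9a2) and -0.78 (Col9a3). Col8a1 (27.8 and 5.85 CPM) and Col8a2 (49.1 and 15.2 CPM), short-chain network collagens, and the fibril-associated Col12a1 (198 and 87.2 CPM), Col14a1 (16.4 and 1.06 CPM) and Col16a1 (48.3 and 18.1 CPM) were the rest of the 8. Col25a1, a transmembrane collagen, was highest, with 39.0 and 51.6 CPM. The median of the list was -0.23 in other mesenchyme, -0.40 in mesenchyme without Coch and -0.48 in epithelium. Other mesenchyme was chosen by a minimum of Col1a1, Col1a2 and Col3a1 together in both libraries, so its collagen ratios are shaped by that choice. Whether the ratios differ between these populations was not tested.

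**Figure D3:**
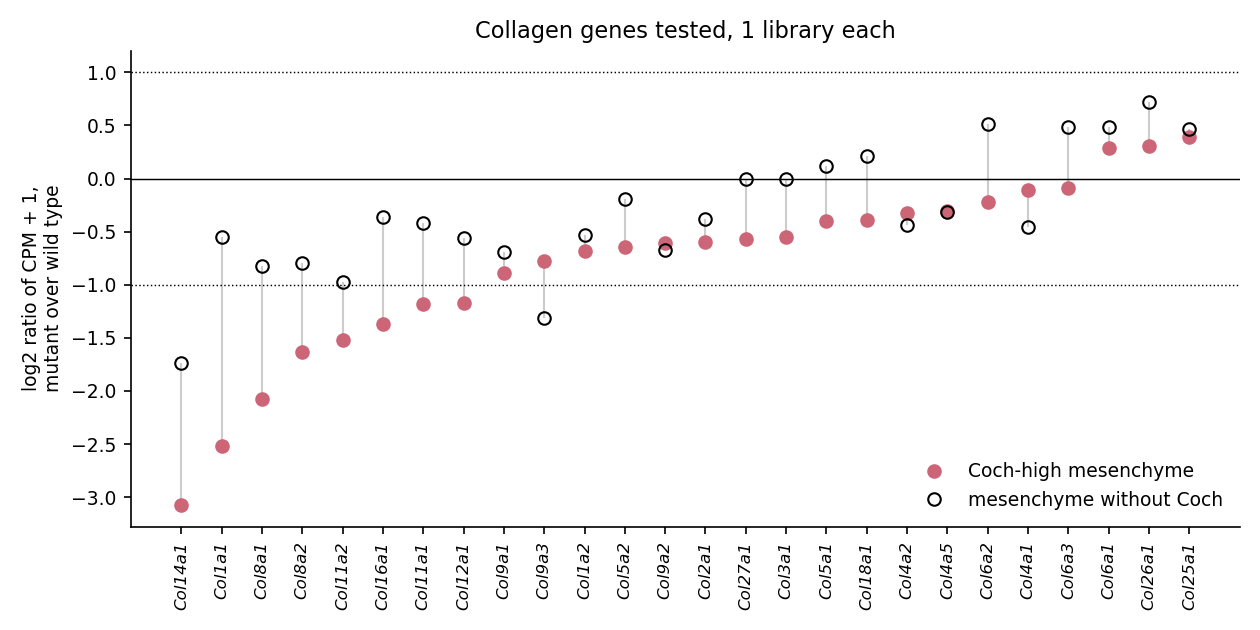
Log2 ratio of mutant over wild-type CPM + 1 for the 26 collagen genes tested, in Coch-high cells (filled red, by which the genes are ordered) and in mesenchyme without Coch (open black), with dotted lines at 2-fold. In Coch-high cells 23 of the 26 points lie below 0, and Col1a1 stands at -2.52, against -0.55 in mesenchyme without Coch.

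Of 28 other matrix products tested, 7 were at least 2-fold lower and 0 higher, and the median was -0.53. The list's median was -0.63 in mesenchyme without Coch, -0.24 in other mesenchyme and -0.91 in epithelium. Ogn, the small proteoglycan osteoglycin, stood at 314 CPM (1153 UMIs) in wild-type against 62.2 CPM (234 UMIs) in mutant cells. Thinned to 3000 UMIs, it was detected in 37.1% (33.0 to 41.4) and 13.0% (9.91 to 16.7) of cells. Its ratio of -2.32 stood beside -1.62 in mesenchyme without Coch, -0.997 in other mesenchyme and -1.999 in epithelium. As for Col1a1, the source of Ogn transcripts in epithelium was not tested. In clusters of both libraries together, given below, Ogn stood at 833 CPM in 109 wild-type cells and 438 CPM in another 96. The largest sub-cluster of each library had 94.7 CPM (251 wild-type cells) and 98.9 CPM (232 mutant cells). A sub-cluster of 27 wild-type and 107 mutant cells had 54.8 and 8.49 CPM. Another, of 21 and 35 cells and led by the S phase gene Ccne2, had 111 and 25.1 CPM. Ucma, a secreted cartilage protein, stood at 90.5 and 27.4 CPM, Epyc, the proteoglycan epiphycan, at 19.9 and 3.46 CPM, and Postn, the matricellular protein periostin, at 90.3 and 37.2 CPM. Ecrg4 (44.5 and 11.7 CPM) and Aspn (19.6 and 8.51 CPM) were also past 2-fold, but the ratio of Ecrg4 went from -1.84 to -0.83 without the mixed cells and that of Aspn from -1.12 to -0.91 in cells thinned to 3000 UMIs. Spp1, which encodes osteopontin, had the lowest ratio, -3.36, but -0.36 when the mixed cells were left out. Proteoglycans of higher level were nearer to even: Dcn stood at 1051 and 872 CPM, Lum at 234 and 149 CPM and Bgn at 373 and 385 CPM. Tnc, the matricellular protein tenascin-C, had the highest ratio, with 9.82 and 18.1 CPM.

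By size of ratio alone, the 10 lowest genes of the named set were Col1a1, Ogn, Pdgfrl, Col8a1, Cldn11, Wdr89, Snhg3, Iqgap2, Cavin1 and Ucma. Iqgap2, a scaffold of the actin cytoskeleton, stood at 144 and 42.3 CPM, a ratio of -1.75 beside -0.52 in mesenchyme without Coch and -0.35 in epithelium. Pdgfrl, a PDGF receptor-like protein, had ratios of -2.20, -0.21 and -1.35 in the same order. Cldn11, a tight junction claudin, stood at 30.8 and 7.45 CPM, and Cavin1, a coat protein of caveolae, at 23.2 and 6.38 CPM. Wdr89 and Snhg3 were past 2-fold in every population: their ratios were -1.88 and -1.79 in Coch-high cells, -1.67 and -1.80 in mesenchyme without Coch, and -1.67 and -2.41 in epithelium.

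Many of the genes with the highest ratios either had like ratios in every population or drew on a single cell. Mpnd stood at 5.45 and 58.2 CPM, Pianp at 7.09 and 46.5 CPM, Gstp1, a glutathione transferase, at 8.45 and 35.1 CPM and Gm10076 at 482 and 2163 CPM. Their ratios of 3.20, 2.55, 1.93 and 2.16 stood beside 3.06, 3.01, 1.82 and 2.03 in mesenchyme without Coch. Loxl2 had 76.3% of its mutant UMIs in 1 cell, and its ratio went from 2.21 to 0.39 when each gene's top cell was left out. Samhd1 had 42.9% in 1 cell, and its ratio went from 1.64 to 0.90. Both ratios were thus under 2-fold without 1 mutant cell. Gfod2 (1.86, and 1.75 without the top cell), Gm17494 (2.07 and 2.28) and 1700120C14Rik (1.82 and 1.74) were past 2-fold without the top cell too. For 1700120C14Rik, 54.8% of wild-type and 54.3% of mutant UMIs were in 1 cell, and with the Coch limit at 6 per 10000 its ratio was -0.72. With the top cell of every gene left out, 75 genes were at least 2-fold higher and 125 lower, of which 67 and 111 were among the 82 and 127.

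**Figure D4:**
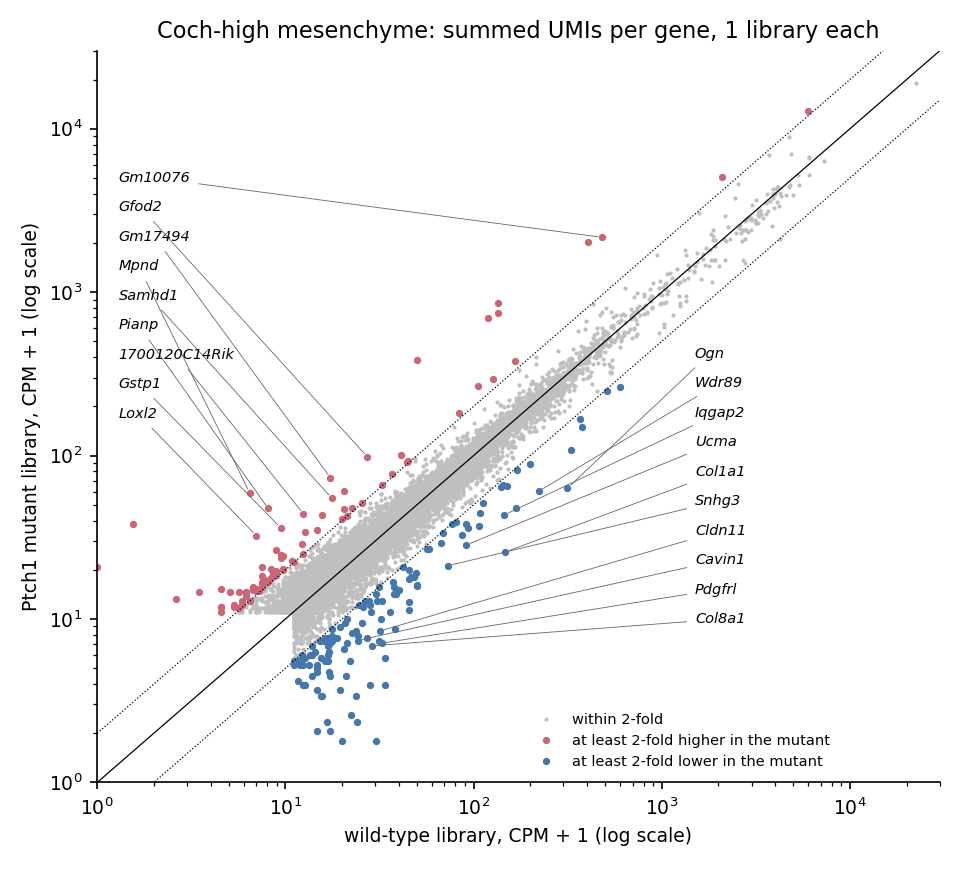
Summed level in wild-type (x) and mutant (y) Coch-high cells, CPM + 1 on log axes, with 1 point for each of the 9036 genes tested. Lines mark equality and 2-fold, red points (82) lie 2-fold or more above equality and blue points (127) 2-fold or more below. Names mark genes with the lowest and highest ratios of the named set, such as Col1a1 and Mpnd.

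Ion transport and gap junction genes, through which mature fibrocytes return potassium, were mostly near even. Of 20 tested, 1 was at least 2-fold higher and 2 lower, with a median of -0.21. Car2, the cytosolic carbonic anhydrase II, stood at 164 CPM (602 UMIs) in wild-type against 378 CPM (1420 UMIs) in mutant cells. Its ratio of 1.20 stood beside 1.11 in mesenchyme without Coch and 0.13 in other mesenchyme. Atp1b1, a beta subunit of the sodium pump, stood at 30.3 and 6.38 CPM, a ratio of -2.08. Clustered together, the cells of both libraries formed a sub-cluster led by neuronal genes, with 32.4% mixed cells. Its 96 wild-type cells held 84 UMIs of Atp1b1 (99.1 CPM). In the largest sub-cluster of each library Atp1b1 stood at 4.98 and 3.57 CPM. In a finer clustering, at resolution 1, Atp1b1 was among the leading genes of 76 wild-type and 13 mutant cells (94.2 against 7.94 CPM). Of these, 18.0% were mixed cells. Without the mixed cells the ratio of Atp1b1 was -2.07. Slc12a2, the sodium-potassium-chloride cotransporter, stood at 66.5 and 51.3 CPM. Of the connexins, Gjb2 (connexin 26) stood at 11.7 and 2.93 CPM and Gja1 (connexin 43) at 99.5 and 77.1 CPM. In mesenchyme without Coch, Atp1b1 and Gjb2 had ratios of -1.15 and -1.36.

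Transcription factors of otic mesenchyme were close to even, with 1 of 31 at least 2-fold higher, 3 lower and a median of -0.08. Pou3f4 and Tbx18 had ratios of -0.16 and 0.41. Twist1, a bHLH factor, stood at 398 and 345 CPM, and Sox9, known for its role in cartilage, at 403 and 409 CPM. The ETS factor Etv4, known as a target of FGF signalling, stood at 14.7 and 42.5 CPM, a ratio of 1.47 beside 1.31 in mesenchyme without Coch. Thinned to 3000 UMIs, Etv4 was detected in 3.01% (1.73 to 4.85) of wild-type and 8.85% (6.27 to 12.0) of mutant cells. Runx1, a runt-domain factor, stood at 15.3 and 4.52 CPM, and Foxc2, a forkhead factor, at 23.7 and 11.2 CPM, where the ratio of -1.02 became -0.33 in thinned cells. Gata3, the zinc finger factor that was the other gene past 2-fold, had a ratio of -1.42 that became -0.46 without the mixed cells.

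The FGF and MAPK response list held 0 of 11 genes past 2-fold, with a median of 0.18. Its feedback inhibitors Spry4 (13.4 and 27.4 CPM), Dusp6 (29.2 and 50.5 CPM) and Spry1 (14.2 and 24.7 CPM) had the highest ratios, 0.98, 0.77 and 0.76, and the receptor Fgfr2 the lowest, -0.30. Spry4, Dusp6 and Spry1 had ratios of 0.74, 0.14 and 0.77 in mesenchyme without Coch.

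In the BMP and TGF-beta list, 3 of 20 were at least 2-fold lower and 0 higher, 17 lay below 0, and the median was -0.27. Id genes, which BMP signalling is known to induce, held 2 of the 3: Id1 stood at 107 and 43.6 CPM and Id2 at 79.9 and 38.3 CPM, with Id3 at 966 and 561 CPM. Their ratios of -1.27, -1.04 and -0.78 stood beside -0.54, -0.40 and -0.42 in mesenchyme without Coch and 0.20, 0.21 and -0.13 in other mesenchyme. Thinned to 3000 UMIs, the ratio of Id1 was -1.31 and that of Id2 -0.71, and without the mixed cells Id2 was at -0.91. The ligand gene Bmp4 stood at 15.8 and 6.65 CPM, and its ratio of -1.14 became -0.40 in cells thinned to 3000 UMIs. Tgfbi, a matrix protein that TGF-beta induces, was highest of the list, with 173 and 332 CPM and a ratio of 0.93.

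WNT genes had 2 of 17 at least 2-fold lower, 0 higher and a median of -0.08. The antagonist Dkk2 stood at 30.5 and 14.6 CPM and the receptor Lgr4 at 10.1 and 4.25 CPM, while the feedback genes Axin2 (115 and 108 CPM) and Nkd1 (79.4 and 106 CPM) were nearer to even. The ratio of Dkk2 was -1.01, and -0.77 in cells thinned to 3000 UMIs. The ligand gene Wnt2 stood at 66.8 and 47.6 CPM in Coch-high cells and 10.4 and 4.16 CPM in other mesenchyme.

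Of 14 genes of insulin-like growth factor signalling, 3 were at least 2-fold lower and 0 higher, with a median of -0.21. The ligand genes Igf1 (16.4 and 3.46 CPM) and Igf2 (111 and 49.99 CPM) and the secreted protease gene Htra1 (44.2 and 16.49 CPM) were the 3, while the binding protein genes Igfbp2 (688 and 784 CPM) and Igfbp4 (1051 and 1142 CPM) were near even. Angiogenic and guidance signals had 1 of 22 lower, the ligand gene Pdgfa at 12.5 and 5.05 CPM, 0 higher and a median of -0.23.

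Thyroid hormone genes other than Crym had 0 of 8 past 2-fold and a median of -0.53, which ran from -0.55 to -0.19 over the settings run. The list's median was -0.11 in mesenchyme without Coch, -0.08 in other mesenchyme and 0.06 in epithelium. The beta receptor gene Thrb had the lowest ratio, with 31.4 and 16.0 CPM, while the alpha receptor gene Thra stood at 177 and 164 CPM. Genes of choline uptake and use other than Slc5a7 also had 0 of 8 past 2-fold, with a median of 0.18, and the choline kinase gene Chka stood at 87.8 and 106 CPM.

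Among lipid and retinoid carriers and enzymes, 3 of 10 were at least 2-fold lower, 0 higher, and the median was -0.50. Apoe, the lipid carrier apolipoprotein E, stood at 169 and 80.8 CPM, a ratio of -1.06 that was -0.95 in thinned cells and -0.93 without the mixed cells. Dhrs3, which reduces retinaldehyde, stood at 19.4 and 5.58 CPM. Aldh1a3, which makes retinoic acid, was the other gene past 2-fold, but had a UMI in only 2.45% and 1.40% of cells, and its ratio went from -3.10 to -1.75 without the top cell. Over all settings run, the ratio of Apoe ranged from -1.07 to -0.30 and that of Aldh1a3 from -3.38 to -0.85.

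Deafness genes expressed in mesenchyme, a list that overlaps those above, had 5 of 18 at least 2-fold lower, 0 higher and a median of -0.59. The 5 were Gjb2, Col11a1, Col11a2, Gata3 and Ednrb, the endothelin B receptor gene, at 39.0 and 14.1 CPM. Gata3 was at -0.46 without the mixed cells, as given above. For Ednrb, 17.5% of wild-type and 49.1% of mutant UMIs were in 1 cell, and its ratio went from -1.41 to -2.02 without each gene's top cell.

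Immediate early and heat shock genes, known to respond to tissue handling, had 3 of 21 at least 2-fold lower and 0 higher, 19 below 0 and a median of -0.48. The early genes Egr1 (374 and 148 CPM), Fos (366 and 166 CPM) and Atf3 (23.5 and 6.91 CPM) were the 3. In cells thinned to 3000 UMIs, the ratio of Atf3 went from -1.63 to -0.68. The chaperone genes Hspa8 (1304 and 1189 CPM) and Hsp90aa1 (689 and 705 CPM) were near even. The list's median was -0.26 in mesenchyme without Coch and -0.05 in other mesenchyme. Of 16 hypoxia and glycolysis genes, 1 was at least 2-fold higher, the enolase gene Eno1 at 82.6 and 181 CPM, and 0 lower, with a median of -0.02.

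Cell cycle genes are bounded by the rule, which drops cells with 5 or more UMIs of Mki67, Top2a and Cenpf. Of 21 S phase genes, 0 were past 2-fold, 19 lay above 0 and the median was 0.41. The helicase subunit genes Mcm5 (28.4 and 44.4 CPM) and Mcm7 (81.3 and 122 CPM) had ratios of 0.63 and 0.58. The same list had a median of 0.12 in mesenchyme without Coch and 0.80 in epithelium. Of 7 genes of G2 and M phase and 14 on the cell cycle exit list, 0 were past 2-fold, with medians of 0.33 and 0.03. The inhibitor gene Cdkn1b was lowest on the exit list, at 89.2 and 50.3 CPM. Mycn, a gene that promotes division, was highest, at 4.91 and 10.4 CPM. That list thus holds genes of opposite roles, and its median gives no direction for exit.

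**Figure D5:**
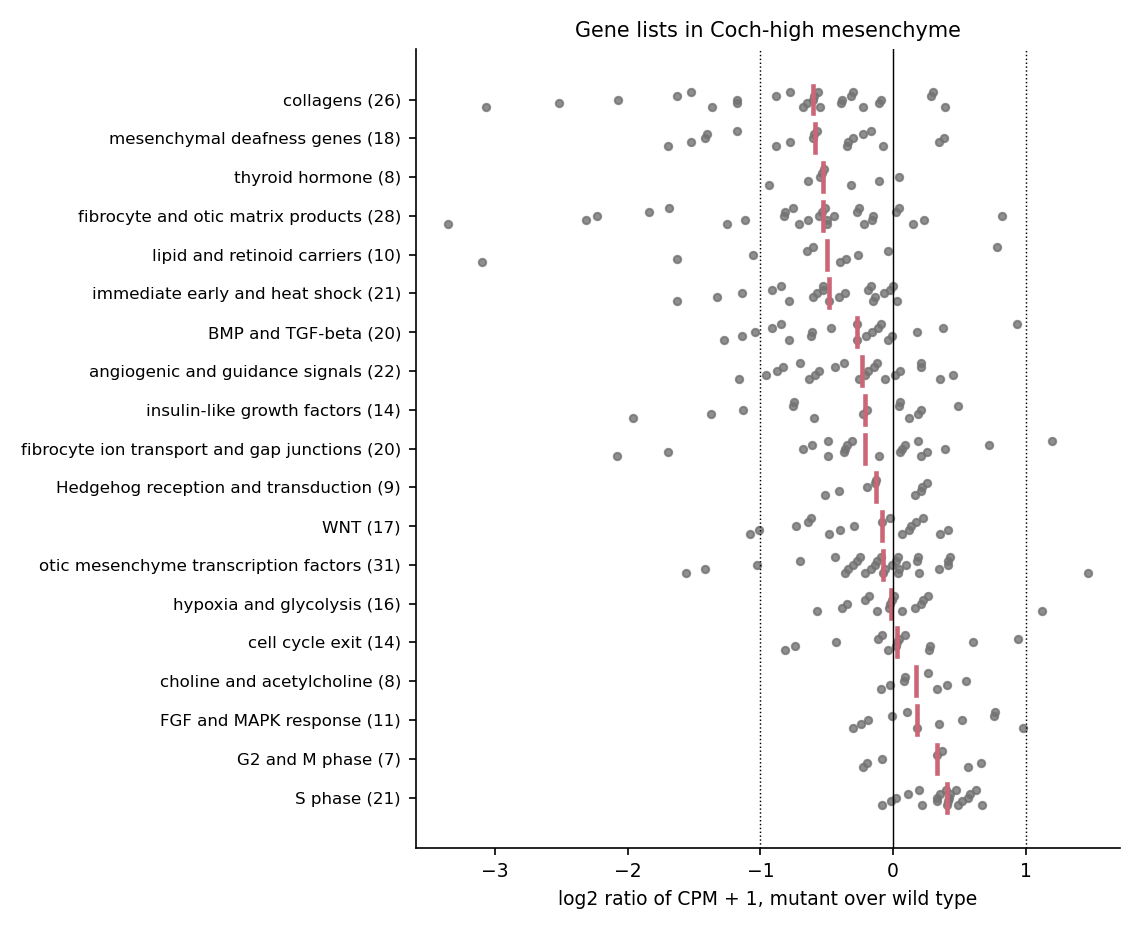
Log2 ratio of mutant over wild-type CPM + 1 in Coch-high cells for each gene tested (grey points), by list, with the number tested in brackets, the median as a red bar and dotted lines at 2-fold. Collagens have the lowest median (-0.60) and S phase genes the highest (0.41).

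Coch-high cells varied among themselves in matrix and cell cycle genes. Clustered together without the genes of the rule, they formed 7 sub-clusters that followed the libraries: 75.3% of cells lay in sub-clusters with at least 80% of their cells from 1 library. Each library was therefore also clustered alone, a step chosen after the data were seen, which gave 6 sub-clusters in each. Since these genes formed the clusters, the levels are descriptions. In the wild type, 79 cells with Ogn at 835 CPM, against 229.6 CPM in the other wild-type cells, had Col1a1 at 449 against 97.4 CPM. In the mutant, Ogn was among the leading genes of 88 cells (192 against 33.5 CPM) and Col1a1 among those of another 69 (78.0 against 14.8 CPM). Postn was among the leading genes of 46 wild-type cells (335 against 66.9 CPM), beside Zpld1 and Car2, and of 95 mutant cells (109 against 12.2 CPM), beside Tnc. Col11a1 was at 1135 CPM in 161 wild-type cells, against 371 CPM in the others. In the mutant, the S phase gene Ccne2 led 45 cells and the mitotic gene Ccnb2 another 29. In the clusters of both libraries together, Ccne2 led 21 wild-type and 35 mutant cells (3.95% and 8.16% of each library's Coch-high cells). Ccnb2 was among the leading genes of 16 and 31 others (3.01% and 7.23%). With the wild type clustered alone, a sub-cluster of 114 cells had neuronal genes such as Stmn2 among its leading genes, and 28.9% of them were mixed cells. Igfbp5 was also among its leading genes (415 against 23.6 CPM). In a finer clustering of both libraries, at resolution 1, 14 wild-type cells with Stmn2 among their leading genes were 100% mixed. A separate sub-cluster of 76 wild-type and 13 mutant cells, led by Rian and Igfbp5, held 18.0% mixed cells.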

How the data were processed

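Single-cell RNA sequencing (10x Genomics 3′ chemistry) was done on cochlear cells of 1 wild-type and 1 Emx2Cre;Ptch1f/f pool. The files, as deposited by the authors, give unnormalized UMI counts for each gene in each barcode, made with Cell Ranger 6.0.0 on mm10 per the submitters' processing notes; per the file headers the software was 6.0.0 for the wild type and 5.0.1 for the mutant. The method of barcode calling is not stated in the labels or headers, and the label of the kit version differs between the libraries. The wild-type matrix holds no barcode under 3352 UMIs and the mutant matrix none under 500.

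Counts were summed per library over the cells of a class and divided by their total to give CPM, with exact Poisson intervals. Shares have exact Clopper-Pearson intervals, and ratios of counts exact binomial intervals. All intervals are at 95% and cover counting error only. Doublets were not called, and mixed cells were counted instead. Clusters were made with Leiden clustering (scanpy 1.11.5, igraph 0.11.9). Other tools were Python 3.11.15, numpy 2.4.6, scipy 1.17.1, pandas 2.3.3 and matplotlib 3.10.9. The scripts were tested on simulated data. Coordinates come from GENCODE vM21, which matched 32158 of 32285 genes, and promoters from RefSeq, where Crym was not matched.

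The cells, gene lists and comparisons were chosen with earlier results of these data known. Named genes between genotypes were the 10 highest and 10 lowest ratios among genes with at least 100 UMIs, 20 CPM in 1 library, a ratio of the same sign with CPM as with median-of-ratios scaling, and, in the library where the gene was higher, at least 0.5 of its CPM over all other filtered cells. Mitochondrial, ribosomal protein, haemoglobin and sex chromosome genes and those of the rule were left out. Against other mesenchyme they were the 15 with at least 50 CPM in both libraries and the highest, and the 10 with at least 50 CPM in other mesenchyme and the lowest, ratios. Of each list, the genes with the extreme ratios and those that describe its role were named. Some genes that this rule gives are not reported here. Alternatives changed the limits of the rule, the minimum of UMIs, the CPM added, the scaling, depth (thinning to 3000 UMIs) and the removal of mixed or single cells.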

Additional observations from a re-analysis of the deposited data

Results flagged for a closer look

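The genes below had a ratio of at least 2-fold one way in Coch-high cells and at least 2-fold the other way in another population of the same 2 libraries. Ratios are log2 of mutant over wild-type CPM + 1, each population is a single library per genotype, and the difference between populations was not tested.

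Red cell genes were higher in mutant Coch-high cells and lower in the other populations. Hba-a1 (432 and 2597 UMIs) had a ratio of 2.54, against -2.05 in epithelium, -2.54 in mesenchyme without Coch and -1.88 in other mesenchyme. Hba-a2 (489 and 2804 UMIs) had 2.47, against -2.24, -2.82 and -1.36 in the same order. Hbb-bs (1490 and 7669 UMIs) had 2.32, against -2.0, -2.54 and -1.18, and Hbb-bt (490 and 3239 UMIs) had 2.68, against -2.01, -3.04 and -1.37. Alas2, an enzyme of haem synthesis (6 and 46 UMIs), had 2.33, against -1.27 in epithelium and -1.85 in mesenchyme without Coch. Without its top cell, the ratio of Hba-a1 was -1.39, so the direction rests on 1 mutant cell. Haemoglobin made up over 1% of UMIs in 13 wild-type and 3 mutant Coch-high cells.

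Postn (331 and 140 UMIs) had a ratio of -1.26 in Coch-high cells and 1.03 in epithelium, and Cpxm2 (101 and 38 UMIs) had -1.36 and 1.16. Tesc (13 and 41 UMIs) had 1.39 in Coch-high cells and -2.24 in epithelium, and Gm16222 (19 and 51 UMIs) had 1.24 and -1.17. With the mutant clustered alone, Gm16222 was among the leading genes of 103 cells (59.2 against 0 CPM), beside Hba-a1 and Hbb-bt. Npy (58 and 17 UMIs) had -1.61 in Coch-high cells and 1.06 in other mesenchyme.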

How the results depend on the processing

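The wild-type share of Coch-high cells exceeded the mutant share under all settings run, with wild-type over mutant ratios of 1.17 to 3.72. The wild-type and mutant shares were 5.84% and 2.96% with Coch at 6 per 10000, 11.7% and 6.83% with Coch at 1, 3.56% and 3.05% with all 3 of Slc5a7, Crym and Apod, 10.7% and 5.58% with 1 of them, and 10.8% and 6.45% with dividing cells kept. Of the cells with Coch-high cells and those without Coch together, the shares were 35.1% and 20.7%. The wild-type share was 9.18% with Epcam not used and 7.55% without mixed cells. The mutant share was 5.44% at a common minimum of 3352 UMIs, 5.19% at 2000 UMIs, 2.16% at a mitochondrial limit of 5% and 6.55% thinned to 3000 UMIs. Genes at least 2-fold higher and lower numbered 148 and 244 at a minimum of 20 UMIs and 30 and 39 at 200 UMIs, against 82 and 127. There were 38 higher with 5 CPM added, and 77 lower after thinning and 81 with all 3 of the trio. The other 12 counts of higher and 11 of lower genes stayed within 1.5 times. Which genes were called changed more under some settings. With Coch at 6 per 10000, 37 of 72 higher and 66 of 90 lower genes were among the 82 and 127. After thinning these were 29 of 57 and 54 of 77, and with all 3 of the trio 43 of 89 and 54 of 81. At the common minimum of 3352 UMIs they were 79 of 83 and 125 of 126. Cells in sub-clusters dominated by 1 library were 83.1% at resolution 0.3 and 81.0% at resolution 1. Of list medians under these settings, 263 stayed within the counting interval of their middle genes and 2 left it. That of collagens was -0.67 after thinning and that of G2 and M phase genes 0.96 with all 3 of the trio. Such intervals can be wide, so a median could stay within its interval and still move. That of Hedgehog reception and transduction genes ran from -0.16 to 0.19 and that of WNT genes from -0.16 to 0.07. That of thyroid hormone genes ran from -0.55 to -0.19. Among named genes with a ratio of at least 2-fold, 6 values changed sign: Stmn2 was 0.17 without mixed cells. With Coch at 6 per 10000, Loxl2 was -0.0070, 1700120C14Rik -0.72 and Hba-a1 -0.070. Hba-a1 was also -1.27 with all 3 of the trio and -1.39 without its top cell. The cause was not tested. Genes under 50 UMIs, such as Gli1 and Hhip, could not be compared at this depth. No paired analysis was possible because each genotype has 1 library.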

Other observations

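Xist, the RNA that coats the inactive X chromosome, was detected at 3000 UMIs in 44.1% (39.8 to 48.4) of wild-type and 27.8% (23.5 to 32.4) of mutant Coch-high cells, in 44.2% and 44.6% of other mesenchyme, and in 56.1% and 35.8% of epithelium. The sexes of the pooled embryos are not given in the sources used here.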
